A study of Homo sapiens with 4 samples.

Results

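This account follows 10 genes of the death receptor and PIDDosome pathways among the 61852 genes measured: FAS, TNFRSF10A, TNFRSF10B, TNFRSF10D, FADD, CFLAR, CASP8, CASP2, PIDD1 and CRADD. They were taken by name from the pathway, and every one was found by its gene ID and tested. The study sequenced poly(A) RNA of H1299, an established non-small-cell lung carcinoma line labelled p53-/-, in 4 libraries. Wild-type p53 (p53WT) was expressed in 2 libraries and CASM34 in the other two. The series' title and design place CASM34 among p53 mutants with cancer-associated synonymous changes. All groups thus share the p53-/- background and the same medium. The labels name no promoter or method of expression, no clone, no time and no damaging agent, so these cells model p53 supplied to a null line in a state the labels leave undescribed. The comparison asks whether these death pathway genes stand at another level with CASM34 than with p53WT.

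Death receptors are members of the tumour necrosis factor receptor family that carry a death domain in the cell. When FAS binds its ligand, or TNFRSF10A and TNFRSF10B bind the ligand TRAIL, they recruit the adaptor FADD, which gathers and activates the initiator caspase CASP8, while CFLAR resembles CASP8 and restrains it. The PIDDosome is a separate platform: PIDD1 binds the adaptor CRADD (also called RAIDD), which recruits and activates the initiator caspase CASP2, a step known after extra centrosomes form, and active CASP2 can cleave MDM2. FAS, TNFRSF10A, TNFRSF10B, TNFRSF10D and PIDD1 are known as p53 targets.

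Library totals ranged from 18086983 (CASM34 S2) to 26906095 (CASM34 S1) rounded counts. The epithelial markers KRT8 and KRT18 lay between 420 and 1096 TPM (a level per transcript length, scaled to a fixed library total) in every library. The leukocyte markers PTPRC and CD3E had 0 counts in all 4, and LYZ had at most 4. Whether S1 and S2 of a group are separate cultures is not stated, so the p-values cover the spread between these libraries alone, which may be technical.

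PIDD1 was the gene of the 10 that rose in CASM34, by a factor of 1.34, and none of the 10 fell. The other 9 did not pass the edgeR test at an adjusted p under 0.05. Across all 15965 genes tested, 1.61% rose and 0.345% fell by the same rule. The fitted log2 fold changes (CASM34 over p53WT) of the 10 ran from -0.10 for CASP2 to 0.46 for CRADD, with 8 above 0, 2 below and a median of 0.09, beside a median of -0.00055 over all genes tested. In CPM (counts scaled to the library total, with TMM factors), both CASM34 libraries lay above both p53WT libraries for 7 of the 10 and below them for 1, against 24.5% and 23.4% of all genes tested. An unadjusted edgeR p under 0.05 was reached by 3 of the 10, PIDD1, FAS and CRADD, all higher in CASM34, where 10.3% of all genes tested were higher by that rule. None of the 10 was lower at that level, where 6.81% of all genes tested were, so this 0 is no result about the 10. FAS and CRADD lay close to the line (unadjusted p = 0.043 and 0.0487 by edgeR). Only PIDD1 stayed under an unadjusted 0.05 by DESeq2, and only PIDD1 and FAS did by limma-voom. None was lower at an adjusted p under 0.05 by DESeq2 or limma-voom. In bulk RNA a larger share of cells with a transcript and more of it in each cell cannot be told apart.

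**Figure D1:**
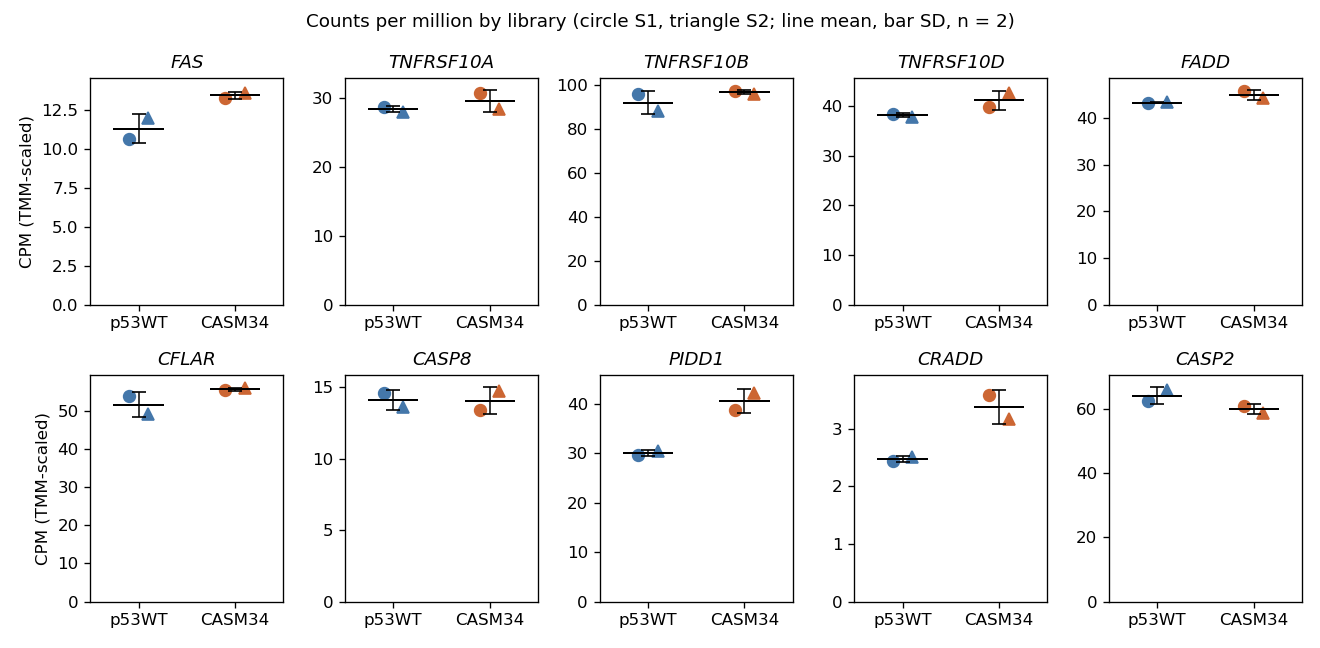
CPM of each of the 10 genes (vertical axes from 0, a separate scale for each gene) in the p53WT (blue) and CASM34 (orange) libraries; circles are S1, triangles S2, horizontal lines the mean and bars the SD of n = 2. The PIDD1 libraries go from 29.6 and 30.4 to 38.8 and 42.2 CPM, while those of TNFRSF10A and CASP8 overlap.

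PIDD1 (ENSG00000177595.19, GRCh38 chromosome 11, 799179 to 809753, minus strand, GENCODE 29) encodes the death domain protein that nucleates the PIDDosome. It had 29.6 and 30.4 CPM in p53WT and 38.8 and 42.2 CPM in CASM34, from 644, 787, 1037 and 771 counts. Both CASM34 libraries lay above both p53WT libraries, and the gap between the groups was wider than either group's own spread. The means were 30.0 ± 0.58 CPM for p53WT and 40.5 ± 2.41 CPM for CASM34 (SD, n = 2 per group), giving a log2 fold change of 0.43 (standard error 0.07, 95% interval 0.28 to 0.57, adjusted p = 0.00921 by edgeR). Without p53WT replicate 1 PIDD1 lay at 0.40 and did not pass (adjusted p = 0.0722 by edgeR), and it passed without any one of the other libraries.

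The transcripts of PIDD1 are rich in G and C, at 66.0%, where the median over tested genes with a sequence was 49.5%. Genes over 65% GC were higher in CASM34 as a class: 96 of the 509 tested, or 18.9%, rose and 1 fell, with a median log2 fold change of 0.27. With an offset for GC content and transcript length, fitted library by library, PIDD1 lay at 0.15 (95% interval -0.0035 to 0.30, adjusted p = 0.412 by edgeR). PIDD1 had a similar size but did not pass with an offset for effective length, at 0.35 (adjusted p = 0.299 by edgeR). Exons of PIDD1 also overlap those of RPLP2, a ribosomal protein gene on the opposite strand with 8704 to 12419 counts per library, and the strand setting of the counting is not given in the sources used here. RPLP2 itself had a log2 fold change of 0.0012 (standard error 0.05, adjusted p = 0.993 by edgeR), and every PIDD1 count was whole. GENCODE 29 also places exons of PANO1 across PIDD1 on the opposite strand. The part of these overlaps in the PIDD1 difference was not tested.

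CRADD (ENSG00000169372.13, chromosome 12, 93677375 to 93894840, plus strand), the adaptor between PIDD1 and CASP2, had the highest fitted fold change of the 10 and the fewest reads. Its counts were 53 and 65 for p53WT and 96 and 58 for CASM34, or 2.44, 2.51, 3.59 and 3.18 CPM. Both CASM34 libraries were again the higher ones, but on few counts. The log2 fold change was 0.46 (standard error 0.21, 95% interval 0.0031 to 0.91, adjusted p = 0.289 by edgeR). With the GC and length offset it lay at 0.48, with GC at 49.7%, close to the median of tested genes. Per length CRADD was lower, at 0.36 with the effective length offset (adjusted p = 0.609 by edgeR). In limma on log2(TPM + 1) it lay at 0.28 (adjusted p = 0.516). The interval runs from almost no difference to 1.88-fold, so the depth of CRADD sets little limit on its size.

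CASP2 (ENSG00000106144.20, chromosome 7, 143288215 to 143307696, plus strand), the caspase of the PIDDosome, lay the other way. Its levels were 62.4 and 65.9 CPM in p53WT and 60.9 and 58.8 CPM in CASM34. The groups did not overlap, with CASM34 lower, but the gap between the nearest libraries was small. The log2 fold change was -0.10 (standard error 0.05, 95% interval -0.22 to 0.02, adjusted p = 0.383 by edgeR), and it stayed between -0.14 and -0.06 under all 17 alternatives, passing in none. The ratio of CASP2 to PIDD1 in TPM was 1.37 and 1.32 for p53WT and 1.003 and 0.944 for CASM34. In deposited TPM, CASP2 transcript was the more abundant per length in p53WT, and the pair were level in CASM34. PIDD1 had 15.35 and 16.6 TPM with p53WT and 19.52 and 21.02 TPM with CASM34. In limma on log2(TPM + 1) neither gene passed (adjusted p = 0.349 for PIDD1 and 0.567 for CASP2). These ratios hold no offset for GC content. The CASP2 to CRADD ratio in TPM was 5.91 and 5.86 with p53WT but 3.86 and 4.67 with CASM34. Neither change in ratio was tested.

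The stretches upstream of the start sites of these 3 genes are shown because their products form 1 complex while their GC content and their values in these libraries differ. They are from RefSeq's promoter table (build GRCh38.p14), up to 250 bases before the first listed start, cut where a GENCODE 29 exon begins. The PIDD1 stretch lies inside the GENCODE 29 span of that gene, whose upstream end on the minus strand is 809753. The CASP2 and CRADD stretches end just before the GENCODE 29 starts of their genes. Capitals mark GGGCGG or its reverse complement CCGCCC, the GC box, with overlapping matches counted singly.
PIDD1, chr11:805246-805481, minus strand: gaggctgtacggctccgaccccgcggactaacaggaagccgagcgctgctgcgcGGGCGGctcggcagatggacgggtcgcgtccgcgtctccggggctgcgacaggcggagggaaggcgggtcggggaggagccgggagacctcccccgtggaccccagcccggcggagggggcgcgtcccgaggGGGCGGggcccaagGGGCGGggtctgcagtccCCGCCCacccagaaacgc
CASP2, chr7:143288101-143288214, plus strand: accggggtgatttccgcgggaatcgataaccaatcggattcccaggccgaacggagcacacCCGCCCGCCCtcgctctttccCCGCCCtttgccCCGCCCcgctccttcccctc
CRADD, chr12:93677125-93677374, plus strand: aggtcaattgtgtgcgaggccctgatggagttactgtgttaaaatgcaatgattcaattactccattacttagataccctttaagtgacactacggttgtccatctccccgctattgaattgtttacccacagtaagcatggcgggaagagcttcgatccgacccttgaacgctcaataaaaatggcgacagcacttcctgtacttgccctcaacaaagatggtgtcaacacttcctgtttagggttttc
The PIDD1 stretch was 77.1% G and C with 4 GC boxes, the CASP2 stretch 67.5% with 4, and the CRADD stretch 44.8% with 0. The contrast holds for these first listed starts: a later CRADD start had 52.8% over 250 bases with 2 GC boxes, and a later CASP2 start 44.0% with 0. A GC box was present in 42.6% of the 35116 promoters of the table over 250 bases on both strands, and the median GC content was 58.0%. The table held 17 promoters for 7 of the 10 genes, and 10 of the 17 had a GC box. TNFRSF10A, TNFRSF10B and TNFRSF10D had no entry, so their promoters were not searched. The consensus half-site of p53, on both strands, was found in 1 of the 3 promoters of FAS and 1 of the 3 of CASP8. It was in none of the listed promoters of CASP2, CFLAR, CRADD, FADD and PIDD1, and in 5.57% of all promoters. A match describes these letters alone and says nothing of binding.

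Among the 4 receptors of the 10 genes, FAS (ENSG00000026103.25, chromosome 10, 88990582 to 89015785, plus strand) had the highest fitted change. Its levels were 10.7 and 12.0 CPM in p53WT and 13.3 and 13.6 CPM in CASM34. Both CASM34 libraries were above both p53WT libraries, which differed from each other about as much as the upper of them did from CASM34. The log2 fold change was 0.25 (standard error 0.11, 95% interval 0.0091 to 0.48, adjusted p = 0.272 by edgeR), and it was 0.30 under the offset for GC and length (adjusted p = 0.262 by edgeR).

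Per length the order of the FAS libraries was not kept. FAS had 8.14 and 10.2 TPM in p53WT and 8.82 and 8.73 TPM in CASM34, so the groups overlapped and the direction turned, at -0.06 with the effective length offset (adjusted p = 0.912 by edgeR). The effective length that RSEM gave FAS, an average over its transcripts weighted by their estimated abundance, was 1570 and 1383 bases with p53WT and 1785 and 1848 bases with CASM34. The files list 61 transcripts for FAS, and its counts were fractional in all 4 libraries. Its exons overlap those of ACTA2, an actin gene on the opposite strand with fractional counts in all 4 libraries as well. ACTA2 had 21.2 and 23.2 CPM in p53WT and 27.1 and 28.9 CPM in CASM34, a log2 fold change of 0.33 (standard error 0.08, adjusted p = 0.0628 by edgeR). FAS and ACTA2 reads cannot be told apart where the exons overlap unless strand was used, and the part of ACTA2 in the FAS values was not tested.

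**Figure D2:**
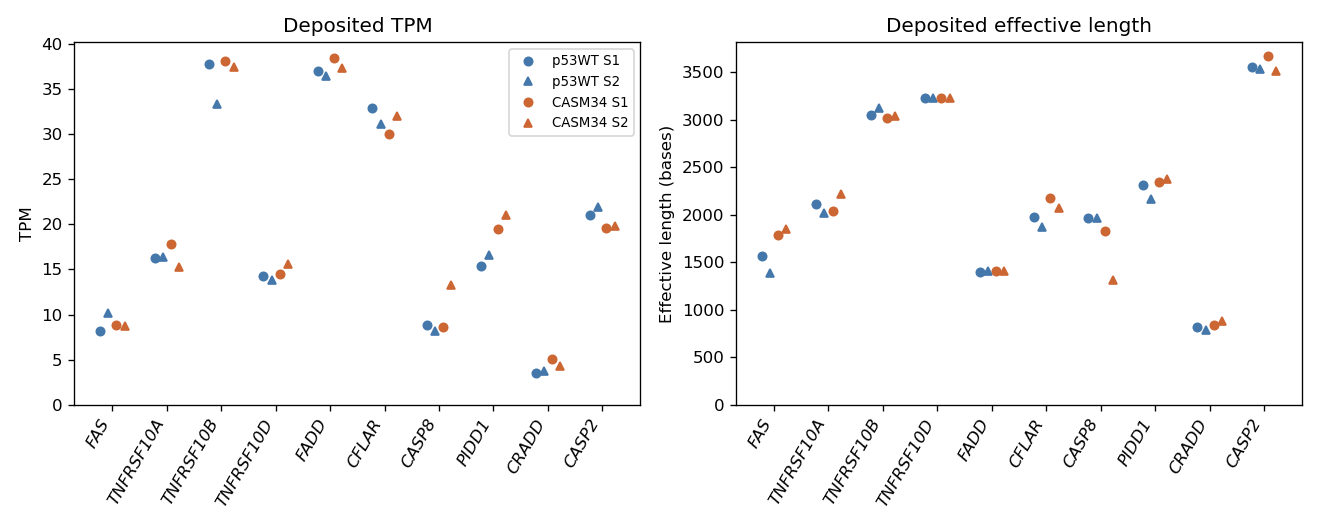
Deposited TPM (left) and effective length in bases (right) of the 10 genes in each library, p53WT in blue and CASM34 in orange, circles S1 and triangles S2. The effective length of FAS is higher in both CASM34 libraries, and that of CASP8 drops to 1316 bases in CASM34 S2, where its TPM rises to 13.3.

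Neither the TRAIL receptors nor the decoy receptor passed the test, and the intervals allow changes of up to 0.24 on the log2 scale. TNFRSF10B (DR5; ENSG00000120889.13, chromosome 8, 23020133 to 23069179, minus strand), a signalling TRAIL receptor, had 95.9 and 88.3 CPM in p53WT and 97.4 and 96.0 CPM in CASM34. The nearest libraries of the 2 groups were almost level. The log2 fold change was 0.07 (standard error 0.05, 95% interval -0.04 to 0.18, adjusted p = 0.520 by edgeR).

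TNFRSF10A (DR4; ENSG00000104689.10, chromosome 8, 23190452 to 23225126, minus strand), the other signalling TRAIL receptor, had 28.7 and 28.1 CPM in p53WT and 30.7 and 28.5 CPM in CASM34. The groups overlapped, at a log2 fold change of 0.06 (standard error 0.07, 95% interval -0.09 to 0.22, adjusted p = 0.706 by edgeR). TNFRSF10D (ENSG00000173530.6, chromosome 8, 23135588 to 23164030, minus strand), which binds TRAIL but has a truncated death domain, had 38.4 and 37.9 CPM in p53WT and 39.7 and 42.5 CPM in CASM34. Its CASM34 libraries were the higher ones, at a log2 fold change of 0.11 (standard error 0.06, 95% interval -0.03 to 0.24, adjusted p = 0.424 by edgeR). Counts of TNFRSF10B were fractional in 3 libraries and those of TNFRSF10A in 2, while those of TNFRSF10D were whole in all. TNFRSF10B exceeded the decoy in every library, with a TPM ratio of TNFRSF10B to TNFRSF10D of 2.64 and 2.41 in p53WT and 2.63 and 2.40 in CASM34. That balance varied more between S1 and S2 than between the groups. Exons of TNFRSF10B overlap RHOBTB2 on the opposite strand, which had 653 to 948 counts per library and a log2 fold change of -0.06 (adjusted p = 0.667 by edgeR). Exons of TNFRSF10A overlap the noncoding genes AC100861.1, with 174 to 217 counts, and TNFRSF10A-AS1, with 13 to 28.2, both on the opposite strand. The levels of TNFRSF10A and TNFRSF10B are uncertain to that extent, since the strand setting is unknown.

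None of the 3 genes of the complex under the receptors passed. FADD (ENSG00000168040.5, chromosome 11, 70203163 to 70207390, plus strand) had 43.2 and 43.4 CPM in p53WT and 45.8 and 44.2 CPM in CASM34. All 4 libraries lay in a narrow band, with a log2 fold change of 0.06 (standard error 0.06, 95% interval -0.07 to 0.18, adjusted p = 0.676 by edgeR), and the offset for GC and length turned it to -0.06. CFLAR (ENSG00000003402.21, chromosome 2, 201116104 to 201176687, plus strand) had 54.0 and 49.3 CPM in p53WT and 55.4 and 56.1 CPM in CASM34. The libraries of CASM34 were the higher ones, at a log2 fold change of 0.11 (standard error 0.06, 95% interval -0.02 to 0.24, adjusted p = 0.370 by edgeR). Per length CFLAR turned, to -0.04 with the effective length offset.

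CASP8 (ENSG00000064012.24, chromosome 2, 201233443 to 201287711, plus strand) had 14.6 and 13.6 CPM in p53WT and 13.4 and 14.7 CPM in CASM34. The p53WT values lay between those of CASM34, with a log2 fold change of -0.0074 (standard error 0.10, 95% interval -0.23 to 0.22, adjusted p = 0.981 by edgeR). Its TPM stood at 8.90 and 8.15 in p53WT and at 8.66 and 13.3 in CASM34. The high value belonged to 1 library, CASM34 S2, in which the effective length of CASP8 was 1316 bases against 1832 to 1971 in the others, while its count was 269. The TPM ratio of CASP8 to CFLAR was 0.271 and 0.261 with p53WT and 0.288 and 0.414 with CASM34, so its highest value rests on the same library.

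**Figure D3:**
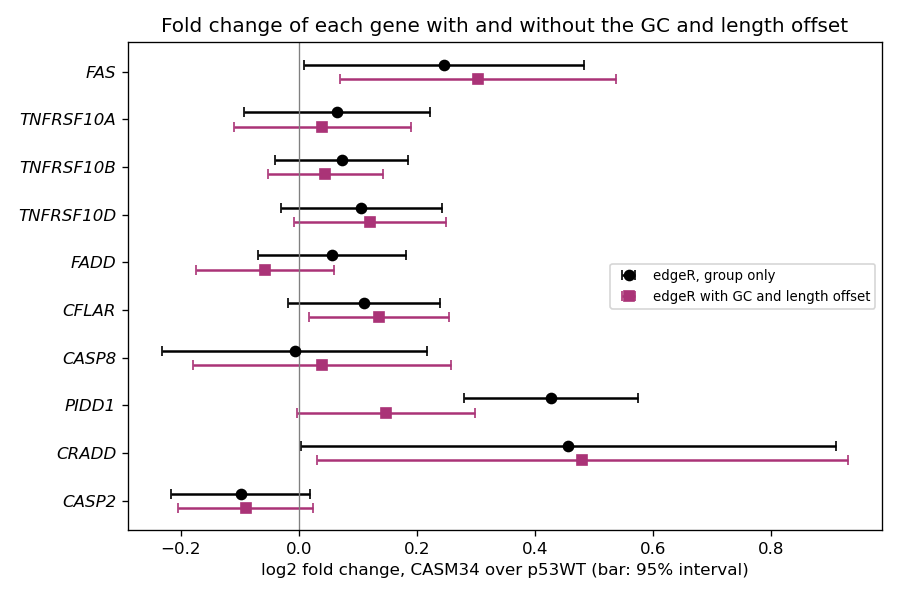
Log2 fold change (CASM34 over p53WT) of each of the 10 genes with its 95% interval, from the edgeR fit with group only (black circles) and with the GC and length offset (purple squares). PIDD1 moves from 0.43 to 0.15 and FADD from 0.06 to -0.06, while FAS and CRADD move to slightly higher values, 0.30 and 0.48.

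Per transcript length, FADD and TNFRSF10B were the most abundant of the 10 and CRADD the least. The mean TPM over the 4 libraries was 37.3 for FADD, 36.6 for TNFRSF10B, 31.5 for CFLAR, 20.6 for CASP2 and 18.1 for PIDD1. It was 16.4 for TNFRSF10A, 14.5 for TNFRSF10D, 9.74 for CASP8, 8.98 for FAS and 4.16 for CRADD. In this order the libraries of FADD and TNFRSF10B overlapped, as did those of CASP2 and PIDD1, PIDD1 and TNFRSF10A, TNFRSF10A and TNFRSF10D, and CASP8 and FAS. The steps from TNFRSF10B to CFLAR, CFLAR to CASP2, TNFRSF10D to CASP8 and FAS to CRADD separated all 4 libraries of one gene from all 4 of the next.

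The ligand genes FASLG, TNFSF10 and TNF were at or near 0. FASLG, the FAS ligand gene, had 0 counts in all 4 libraries, where 3 counts, the limit that a count of 0 allows, equal 0.111 to 0.166 CPM for counting error only. TNFSF10, which encodes TRAIL, had 1 count in 3 libraries and 0 in CASM34 S2, and TNF had 0 counts with p53WT and 2 and 1 with CASM34. The caspase gene CASP10, a relative of CASP8, had at most 8 counts, and the necroptosis kinase gene RIPK3 had 0 in all. The glycolipid-anchored decoy gene TNFRSF10C had 2 to 7 counts, fractional in all 4 libraries.

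Of 51 other genes of the pathway in 5 lists, 40 were tested, 2 rose and 0 fell, with a median log2 fold change of -0.02. Among 6 tested receptors and ligands of 12, both of those rises were found, with a median of 0.13. TNFRSF6B, the soluble decoy receptor DcR3 that binds FAS ligand, had 56.8 and 59.8 CPM in p53WT and 69.3 and 72.7 CPM in CASM34. The groups were well apart, at a log2 fold change of 0.28 (standard error 0.05, adjusted p = 0.0222 by edgeR), with fractional counts in all 4 libraries. TNFRSF25, the death receptor DR3, had 15.4 and 13.7 CPM in p53WT and 19.4 and 19.5 CPM in CASM34, a log2 fold change of 0.42 (standard error 0.10, adjusted p = 0.0431 by edgeR). Their transcripts hold 65.9% and 63.6% G and C. With the GC and length offset TNFRSF6B lay at 0.03 and TNFRSF25 at 0.21, and neither passed (adjusted p = 0.861 and 0.378 by edgeR). Without p53WT replicate 1 neither passed (adjusted p = 0.162 and 0.109 by edgeR), and without p53WT replicate 2 TNFRSF25 did not (adjusted p = 0.261 by edgeR). TNFRSF25 also missed with DESeq2 (adjusted p = 0.129).

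None of the 34 tested genes in the remaining 4 lists passed by edgeR, DESeq2 or limma-voom. At an unadjusted edgeR p under 0.05, 3 of them were higher and 4 lower, where 10.3% and 6.81% of all genes tested were. Of 9 tested adaptors and kinases of receptor complexes, 6 lay above 0, with a median of 0.06. The smallest p-values there belonged to TRADD, the adaptor of TNF receptor 1, at 0.31 (standard error 0.09, adjusted p = 0.0965 by edgeR), and TRAF2, a ubiquitin ligase of the same complex, at 0.09 (standard error 0.05, adjusted p = 0.416 by edgeR). The offset for GC and length took TRADD to 0.08 and turned TRAF2 to -0.09. Of 12 executioner and mitochondrial genes 5 lay above 0 and 7 below, with a median of -0.02. ENDOG, a mitochondrial nuclease gene, had a log2 fold change of 0.28 (standard error 0.07, adjusted p = 0.0583 by edgeR), and the offset for GC and length turned it to -0.02. CYCS, the cytochrome c gene, had one of -0.14 (standard error 0.05, adjusted p = 0.126 by edgeR).

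All 6 tested inhibitors of apoptosis lay slightly below 0, from -0.10 to -0.02, and none passed. Over all 15965 genes tested, 8009 lay below 0. The survivin gene BIRC5 stood at -0.10 (standard error 0.05, adjusted p = 0.290 by edgeR) and BIRC2, the gene of the ubiquitin ligase cIAP1, at -0.07 (standard error 0.05, adjusted p = 0.480 by edgeR). The offset for GC and length put BIRC5 at -0.13 and BIRC2 at -0.01. Of 7 genes tied to where the PIDDosome assembles, the distal appendages of the centriole and the nucleolus, 2 lay above 0 and 5 below, with a median of -0.07. The appendage gene FBF1 stood at 0.26 (standard error 0.08, adjusted p = 0.117 by edgeR) and the nucleolar gene NPM1 at -0.10 (standard error 0.05, adjusted p = 0.364 by edgeR). FBF1 lay at 0.07 and NPM1 at -0.02 under the offset for GC and length. Both had fractional counts in all 4 libraries. ANKRD26, the appendage gene whose product recruits PIDD1, stood at -0.07 (standard error 0.10, adjusted p = 0.764 by edgeR), named here after its value was known.

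**Figure D4:**
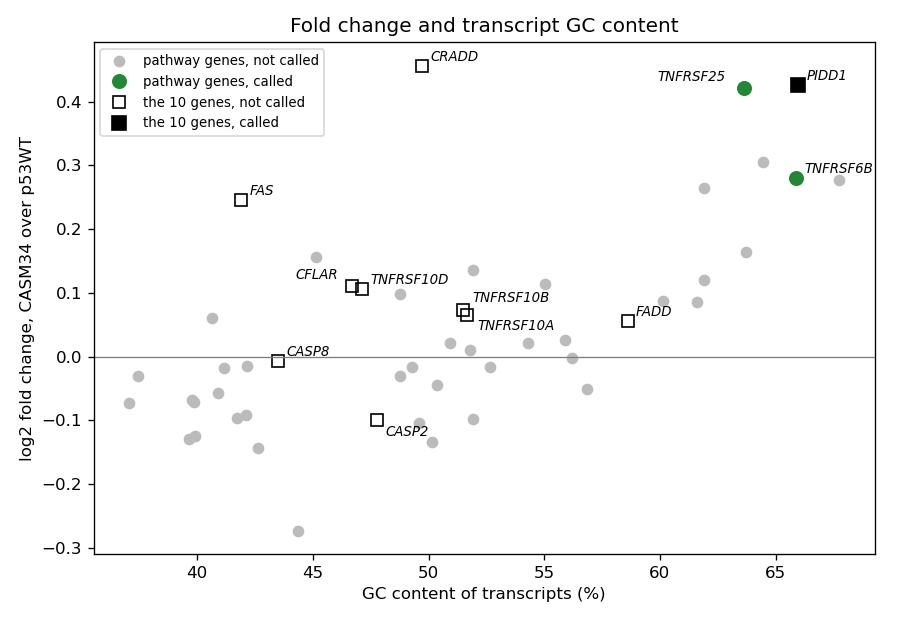
Log2 fold change (CASM34 over p53WT) against the GC content of the transcripts for the 10 genes (squares) and the 40 other tested genes of the pathway (circles), filled black or green where they passed. The 3 genes that passed, PIDD1, TNFRSF6B and TNFRSF25, lie at 66.0%, 65.9% and 63.6% GC, while FAS and CRADD lie high at 41.9% and 49.7%.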

How the data were processed

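The data are poly(A) RNA-seq of 4 H1299 libraries, 2 p53WT and 2 CASM34. The submitters' processing notes name STAR, RSEM, Trim Galore and the build GRCh38. Tool versions, the annotation and the strand setting: not given in the sources used here. Per the file headers, the authors deposited RSEM expected counts, TPM and effective lengths in bases (an abundance-weighted value) for each gene. RSEM divides reads that match several gene models, so some counts are fractional (tolerance 0.001).

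Counts were rounded and tested with edgeR 4.0.16 in R 4.3.3 (quasi-likelihood F test on group alone, TMM factors, low genes removed by filterByExpr at its minimum count of 10), with Benjamini-Hochberg adjustment over the 15965 genes kept of 61852 and a threshold of 0.05. The standard error is |log2 fold change| divided by the root of F. The fit was also run on counts simulated with the same spread setting for all genes and no GC or length trend. That run cannot bear on values that move with GC content. Symbols came from a gene ID table, coordinates from GENCODE 29 (1-based). GC content was taken over GENCODE 29 transcripts and was known for 98.3% of tested genes. In the offset for GC and length, splines with 5 degrees of freedom per term described each library's log2 CPM deviation.

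Alternatives were 3 other scalings, 2 other filters, DESeq2 1.42.0, limma 3.58.1 (voom, and log2(TPM + 1) or log2(TPM + 0.1)), an effective length offset, the GC and length offset, a replicate block without and with it, and leaving out each library. All 10 genes are named, as are pathway genes that passed, or otherwise the pair in each list with the smallest p. The genes, lists and alternatives were chosen with earlier results of these data known, and lists are given as counts and medians without a set test. No sample was left out, and 1 marker gene is not reported here.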

Additional observations from a re-analysis of the deposited data

How the results depend on the processing

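Of the 170 values of the 10 genes under 17 alternatives, 149 kept their direction and side of the threshold, 6 no longer passed (all PIDD1) and 15 turned sign. DESeq2 gave CRADD no adjusted p, and that value is counted among the 149 as not passing. PIDD1 kept its direction throughout, from 0.15 to 0.49, and passed in 11 of 17. The number of the 10 that rose fell from 1 to 0 in limma on log2(TPM + 1) and log2(TPM + 0.1), with the effective length offset, with the GC and length offset and with the replicate block joined to that offset, and was 0 to 1 when each library was left out. FAS turned to -0.05 in limma on log2(TPM + 1) and log2(TPM + 0.1) and to -0.06 with the effective length offset. CFLAR turned to -0.04 in limma on log2(TPM + 1), -0.05 on log2(TPM + 0.1) and -0.04 with that offset. CASP8 turned to 0.30, 0.33 and 0.35 in the same 3, to 0.04 with the GC and length offset without or with the block, and ran from -0.07 to 0.06 when each library was left out. With the GC and length offset, FADD turned to -0.06 and TRAF2 to -0.09, both also with the block, and ENDOG to -0.02 (-0.01 with the block). The cause of these turns was not tested.

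The number of receptors and ligands that rose went from 2 to 1 with library totals and with DESeq2, to 0 in both limma fits on TPM and with the effective length, GC and length, and block with GC and length offsets, and was 0 to 3 when each library was left out. The replicate block gave 1 rise among adaptors and kinases, 1 rise and 1 fall among executioner genes, and 1 rise among the PIDDosome recruitment genes, all from 0. Executioner genes had 1 rise with no filter and with a mean CPM of at least 1, and 0 to 1 when each library was left out.

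Over all genes, 257 rose and 55 fell. Rises and falls were 542 and 235 with no filter, 5 and 0 with the effective length offset, 22 and 18 with the GC and length offset, 798 and 361 with the replicate block, and 166 and 266 with both. They were 0 and 0 in each limma fit on TPM, where 1820 (TPM + 1) and 1811 (TPM + 0.1) genes had an unadjusted p under 0.05. DESeq2 gave 160 rises and library totals 27 falls. Leaving out each library gave 95 to 650 rises and 14 to 269 falls. The labels do not say whether S1 and S2 pair libraries across the groups. Deviations of same-numbered libraries from their group means had a correlation of 0.03 across genes. With so few libraries this value cannot settle whether they were paired. The block changed no call among the 10 genes. CRADD, with 53 to 96 counts, is the gene that depth limits most.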
